A study of Mus musculus with 4 samples.

Results

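The lymph node Cd4-labelled cells are the 1873 cells that the authors' cell annotation assigns both to the lymph node library and to the label Cd4. They make up 37.6% of the 4988 cells of that library and stand among 10558 cells in the whole deposited table. The same library holds 2788 cells labelled Cd8, 321 labelled Treg and 6 labelled Tdp, and the tumor library holds 2451 cells labelled Cd4, 2693 labelled Tdp and 406 labelled Tcell, with 19 Treg and 1 Cd8 besides. The sources used here do not say how the labels were assigned.

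Each tissue gave 1 RNA library and 1 receptor library, so the study has 4 samples and no replicate. The sample titles call the lymph node cells endogenous and the tumor cells transgenic and endogenous. All 4 samples otherwise carry the same text: the strain RAG1- BW TRP-1 TCR, the treatment entry "untreated", and a protocol in which mice with subcutaneous B16F10 melanoma received cyclophosphamide at 250 mg/kg, then 1 day later purified TRP1 CD4+ T cells, after which tumors were taken 11 days past the transfer and the CD45.1 TRP1 cells sorted into CD4+ cells and CD4+CD8+ cells. The protocol names no CD8 sort, while 55.9% of the lymph node library is labelled Cd8. No label describes the lymph node mice, their age, how many were pooled, or how the lymph node cells were sorted. TRP1 cells carry a transgenic receptor for a melanocyte protein of the B16 tumor. A Cd4 cell of the lymph node therefore differs from a Cd4 cell of the tumor in tissue, library, receptor and transfer at once, and these cannot be told apart.

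CD4 T cells are the helper lineage: their coreceptor binds MHC class II, the factor ThPOK (gene Zbtb7b) sets the lineage, and CD40 ligand (Cd40lg) carries help to B cells and dendritic cells. Before they meet antigen they circulate between blood and lymph nodes, entering with the help of CCR7 and leaving through the sphingosine phosphate receptor S1PR1, under factors such as TCF1 (Tcf7), LEF1 and KLF2. Cells that have met antigen carry more CD44, S100 proteins and integrins, and often inflammatory chemokine receptors.

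The values are unique molecular identifier (UMI) counts. The Cd4-labelled cells held 8994187 UMIs, or 4763 UMIs and 1439 genes in the median cell, against medians of 6306 UMIs in lymph node Cd8 cells, 5225 in lymph node Treg cells and 5533 in tumor Cd4 cells. Levels are UMIs summed over the cells of a label, per 1000000 UMIs of that label (CPM), and ratios are log2 of CPM plus 1, lymph node Cd4 over the other label. Folds are plain CPM ratios with exact 95% intervals that cover counting error only, since 1 library per tissue allows no test between mice. Ribosomal protein transcripts made up 43.5% of UMIs in the median lymph node Cd4 cell, against 44.8% in lymph node Cd8 cells, 30.4% in lymph node Treg cells and 28.0% in tumor Cd4 cells, and this moves every other gene's CPM against the last 2 labels. Trimmed-mean (TMM) scaling moved the median log2 ratio of all counted genes to 0.00, as compared with 0.07, against lymph node Cd8 cells, to 0.05, as compared with -0.31, against lymph node Treg cells and to -0.08, as compared with -0.20, against tumor Cd4 cells. Of the 10558 barcodes, 36 occur in both libraries, 10 of them on lymph node Cd4 cells.

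The markers named with the cell type were higher in lymph node Cd4 than in lymph node Cd8 cells, while the Cd4 transcript itself was sparse. Cd4 reached 158.8 CPM in lymph node Cd4 cells, against 13.0 in lymph node Cd8 cells, 137 in lymph node Treg cells and 413 in tumor Cd4 cells. At least 1 Cd4 UMI was found in 949 of the 1873 lymph node Cd4 cells, a share of 50.7% (48.4 to 53.0), against 4.59% (3.84 to 5.43) of lymph node Cd8 cells, a type that should lack the gene. The median depths are those given above. With every cell thinned to 2000 UMIs, which left out 62 lymph node Cd4, 26 lymph node Cd8, 12 lymph node Treg and 33 tumor Cd4 cells, the shares were 28.3% of lymph node Cd4 cells, against 1.74% of lymph node Cd8 cells.

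By coreceptor UMIs, 854 lymph node Cd4 cells (45.6%) had Cd4 alone, 828 (44.2%) had neither Cd4 nor Cd8a nor Cd8b1, 96 (5.13%) had Cd8a or Cd8b1 alone and 95 (5.07%) had both. The other markers were within 1.5-fold between the cells with neither and the cells with Cd4 alone, and the intervals overlapped for Cd40lg and Ly6c1 but not for Igfbp4. Igfbp4 stood at 1693 CPM (1652 to 1736) in cells with neither, against 1863 CPM (1822 to 1904) in cells with Cd4 alone. Cd40lg stood at 120.0 CPM (109 to 132) in cells with neither, against 117 CPM (107 to 127) in cells with Cd4 alone. Ly6c1 stood at 351 CPM (332 to 370) in cells with neither, against 332 CPM (315 to 350) in cells with Cd4 alone. The median depth was 4426 UMIs in cells with neither and 4974 UMIs in cells with Cd4 alone.

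Summed over the 96 cells with Cd8a or Cd8b1 alone, UMIs of helper and of cytotoxic genes were found. Whether the same cells carried both kinds was not tested. Cd40lg was at 109 CPM (80.9 to 144) and Igfbp4 at 1381 CPM in the 96 cells, both on the helper side. Nkg7, a granule protein of cytotoxic cells, was at 181 CPM (144 to 224) in these cells, against 31.0 CPM (26.0 to 36.7) in cells with Cd4 alone. Ly6c2 was at 67.5 CPM (45.9 to 95.9) in the cells with Cd8a or Cd8b1 alone and at 7.17 CPM (4.87 to 10.2) in those with Cd4 alone. The part of doublets and free RNA in these values was not tested.

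**Figure D1:**
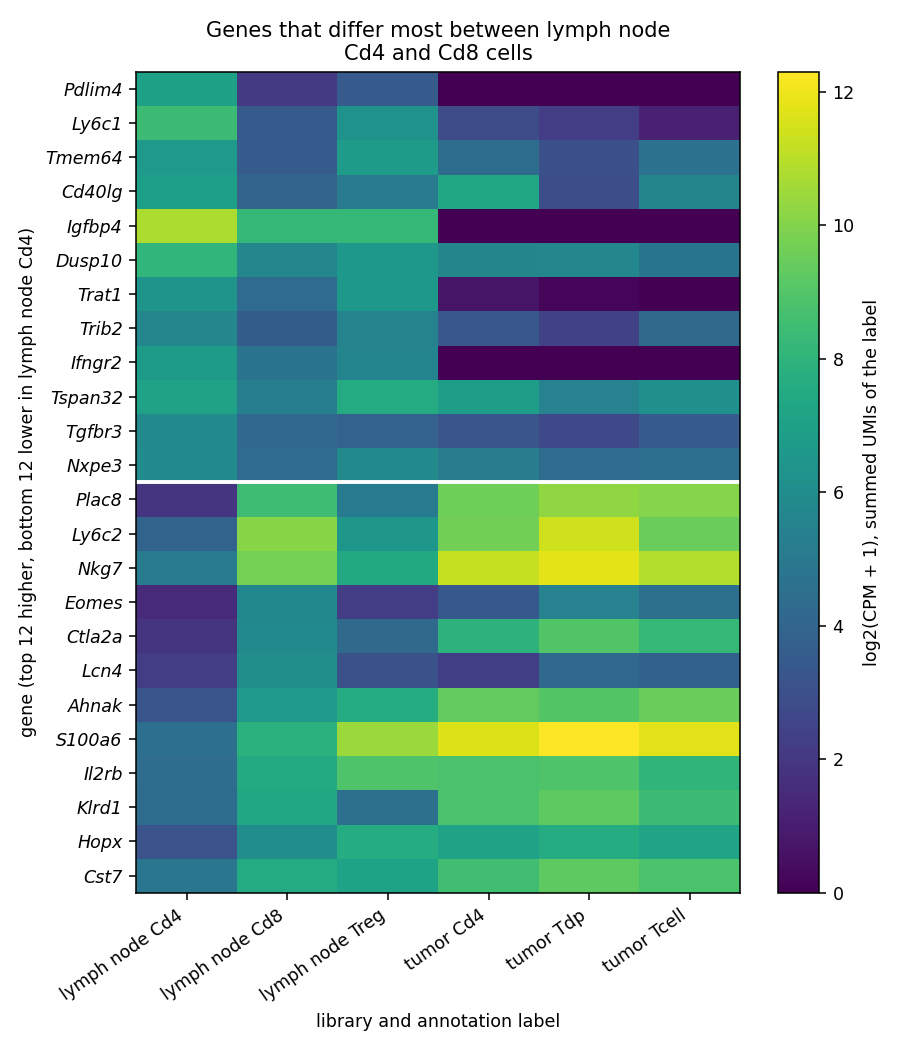
Levels of the 24 genes that differ most between lymph node Cd4 and lymph node Cd8 cells, as log2(CPM + 1) of summed UMIs (colour), with labels in columns and genes in rows, the 12 higher in lymph node Cd4 above the white line. Igfbp4 (1757 CPM in lymph node Cd4 cells) is the brightest upper row, and Igfbp4, Pdlim4 and Ifngr2 are listed at 0, which may not be a measured value, in all 3 tumor labels shown.

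Against lymph node Cd8 cells, the largest other label of the same library, the difference was carried by a small set of genes. Of 4530 genes counted (20 CPM or more in either label, receptor segments and Cd4, Cd8a and Cd8b1 left out), 65 were at least 2-fold higher in lymph node Cd4 cells, which is 1.43%, and 96 at least 2-fold lower, 2.12%. The median log2 ratio over all of them was 0.07.

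The largest ratio above 0 belonged to Pdlim4, an actin-binding LIM protein. It was at 129.6 CPM in lymph node Cd4 cells and 3.20 CPM in lymph node Cd8 cells, a 40.5-fold ratio (31.1 to 53.7). A Pdlim4 UMI was found in 37.2% of lymph node Cd4 cells and in 1.51% of lymph node Cd8 cells. Its RefSeq locus is chr11:54054928-54069032 (GRCm38.p6).

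Igfbp4, a secreted binder of insulin-like growth factors, was the most abundant of these genes. It was at 1757 CPM in lymph node Cd4 cells and 291 CPM in lymph node Cd8 cells, a 6.03-fold ratio (5.85 to 6.22). At 2000 UMIs per cell it was found in 84.8% of lymph node Cd4 cells, against 32.5% of lymph node Cd8 cells (90.2% against 51.1% before thinning). The part of free RNA and doublets in these shares was not tested.

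Cd40lg was at 121 CPM in lymph node Cd4 cells and 15.0 CPM in lymph node Cd8 cells, an 8.08-fold ratio (7.07 to 9.26). Zbtb7b, the ThPOK gene, was at 31.0 CPM in lymph node Cd4 cells and 2.32 CPM in lymph node Cd8 cells, 13.4-fold (9.65 to 19.0). St8sia6, a sialyltransferase, was at 41.7 CPM in lymph node Cd4 cells and 1.44 CPM in lymph node Cd8 cells, 29.1-fold (19.5 to 45.1). Trat1, an adaptor that associates with the T cell receptor, was at 81.9 CPM in lymph node Cd4 cells and 19.0 CPM in lymph node Cd8 cells, 4.32-fold (3.79 to 4.92). Dusp10, a phosphatase of stress-activated kinases, was at 270.3 CPM in lymph node Cd4 cells and 51.6 CPM in lymph node Cd8 cells, 5.24-fold (4.86 to 5.65). The other named genes higher in lymph node Cd4 cells were Tmem64, Trib2, Ifngr2 (for the second chain of the IFN-gamma receptor), Tspan32, Tgfbr3 (a coreceptor for TGF-beta) and Nxpe3, at ratios between 1.62 (Nxpe3) and 3.09 (Tmem64) on the log2 scale.

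The Ly6c pair, which encodes closely related membrane-anchored surface proteins, ran in opposite directions. Ly6c1 was at 343 CPM in lymph node Cd4 cells and 10.2 CPM in lymph node Cd8 cells, 33.6-fold higher (28.9 to 39.2). Ly6c2 was at 14.2 CPM in lymph node Cd4 cells and 1118 CPM in lymph node Cd8 cells, so that lymph node Cd8 cells held 78.6 times as much (66.0 to 94.2). A Ly6c1 UMI was found in 55.8% of lymph node Cd4 cells, against 3.05% of lymph node Cd8 cells, and a Ly6c2 UMI in 4.27% of lymph node Cd4 cells, against 73.6% of lymph node Cd8 cells. Near-identical copies can share reads and the sources used here do not say how such reads were counted, yet the pair was separated almost completely in these counts.

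The 250 bases before the start of each gene are shown because the pair shares ancestry there while its levels run opposite (RefSeq, GRCm38.p6, minus strand, Ly6c1 chr15:75048838-75049087 and Ly6c2 chr15:75111972-75112221). Where 2 starts were listed for a gene, the pair with the best alignment score was taken. Capitals mark bases that differ between the pair or have no partner.
Ly6c1: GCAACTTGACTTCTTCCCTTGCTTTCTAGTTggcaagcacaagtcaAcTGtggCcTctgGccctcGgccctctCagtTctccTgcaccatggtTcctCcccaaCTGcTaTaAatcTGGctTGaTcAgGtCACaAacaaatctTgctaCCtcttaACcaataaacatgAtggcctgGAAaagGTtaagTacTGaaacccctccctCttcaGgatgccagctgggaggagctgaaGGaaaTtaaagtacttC
Ly6c2: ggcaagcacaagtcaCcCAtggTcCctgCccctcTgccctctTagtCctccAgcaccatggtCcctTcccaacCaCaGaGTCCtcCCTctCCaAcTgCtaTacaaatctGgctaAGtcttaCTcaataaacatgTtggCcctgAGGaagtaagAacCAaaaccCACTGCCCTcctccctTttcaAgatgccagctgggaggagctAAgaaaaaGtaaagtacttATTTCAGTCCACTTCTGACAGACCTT
Of 209 aligned bases 169 (80.9%) were identical, 40 differed, and 41 in each had no partner. The runt-domain factor motif TGTGGT, searched on both strands, occurred once in the Ly6c2 window and had no match in the Ly6c1 window, and 14.0% of 32817 mouse promoter windows of this length hold it. The E-protein motif CAGCTG occurred once in each window, with 13.0% of windows holding it. The TCF/LEF motif CTTTGA, held by 13.8% of windows, had no match in either window. Neither did AGATAA, bound by the family of Gata3 and held by 9.99% of windows.

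On the lower side stood genes of cytotoxic and memory CD8 cells. Plac8 was at 2.67 CPM in lymph node Cd4 cells and 362 CPM in lymph node Cd8 cells, and Nkg7 at 31.1 CPM in lymph node Cd4 cells and 858.5 CPM in lymph node Cd8 cells. Eomes, a T-box factor of memory CD8 cells, was at 1.78 CPM in lymph node Cd4 cells and 51.8 CPM in lymph node Cd8 cells. Il2rb, the chain shared by the IL-2 and IL-15 receptors, was at 20.2 CPM in lymph node Cd4 cells and 185 CPM in lymph node Cd8 cells. Klrd1, Cst7, Hopx, S100a6, Ahnak, Ctla2a and Lcn4 completed the set with Ly6c2, at log2 ratios between -3.91 (Ctla2a) and -2.73 (Cst7).

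Of 14 CD4 helper genes, 11 were counted, 4 were at least 2-fold higher in lymph node Cd4 cells and 0 lower, with a median log2 ratio of 0.53. The 4 were Cd40lg, Zbtb7b, St8sia6 and Itgb3, an integrin chain at 25.4 CPM in lymph node Cd4 cells and 5.35 CPM in lymph node Cd8 cells. Cd40lg is among the markers named with the cell type. All 4 were under 20 CPM in lymph node Cd8 cells, so they were counted only through lymph node Cd4 cells and could only come out higher. Of 13 counted CD8 and cytotoxic genes, 10 were lower and 1 higher, with a median of -2.73. The 1 higher was Fasl, the death ligand, at 24.4 CPM in lymph node Cd4 cells and 11.1 CPM in lymph node Cd8 cells (2.20-fold, 1.80 to 2.67). CD8 and cytotoxic genes under 20 CPM in lymph node Cd4 cells, such as Eomes, were counted only through lymph node Cd8 cells and could only come out lower. Fasl, under 20 CPM in lymph node Cd8 cells, could only come out higher.

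Most naive-state genes lay within 2-fold between these labels. Of 25 counted, 3 were higher (S1pr1, Trat1 and Igfbp4) and 1 lower, with a median of 0.32. Igfbp4 is among the markers named with the cell type, and Trat1, under 20 CPM in lymph node Cd8 cells, could only come out higher. Ccr7 was at 601 CPM in lymph node Cd4 cells and 412 CPM in lymph node Cd8 cells. S1pr1 was at 276 CPM in lymph node Cd4 cells and 109.5 CPM in lymph node Cd8 cells, and Lef1 at 462 CPM in lymph node Cd4 cells and 236 CPM in lymph node Cd8 cells. The 1 lower gene was Tmem108, at 26.0 CPM in lymph node Cd4 cells and 105.5 CPM in lymph node Cd8 cells.

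Genes of antigen experience were lower: 13 of 18 counted were at least 2-fold lower in lymph node Cd4 cells and 0 higher, with a median of -2.13. Over all counted genes 2.12% were lower. Members under 20 CPM in lymph node Cd4 cells, such as Cd44 and Cxcr3, were counted only through lymph node Cd8 cells and could only come out lower. Cd44 was at 9.23 CPM in lymph node Cd4 cells and 36.0 CPM in lymph node Cd8 cells, and Cxcr3 at 1.11 CPM in lymph node Cd4 cells and 40.6 CPM in lymph node Cd8 cells. S100a6 was at 21.4 CPM in lymph node Cd4 cells and 232 CPM in lymph node Cd8 cells. Counted cell by cell at 2000 UMIs, 5 of 1811 lymph node Cd4 cells (0.276%) carried at least 4 of 8 genes of this kind (Cd44, S100a4, S100a6, Lgals1, Itgb1, Cxcr3, Ccl5 and Id2), against 156 of 2762 lymph node Cd8 cells (5.65%), 45 of 309 lymph node Treg cells (14.6%) and 1313 of 2418 tumor Cd4 cells (54.3%). Without thinning the shares were 0.694% of lymph node Cd4 cells, 21.1% of lymph node Cd8 cells, 36.4% of lymph node Treg cells and 86.9% of tumor Cd4 cells.

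**Figure D2:**
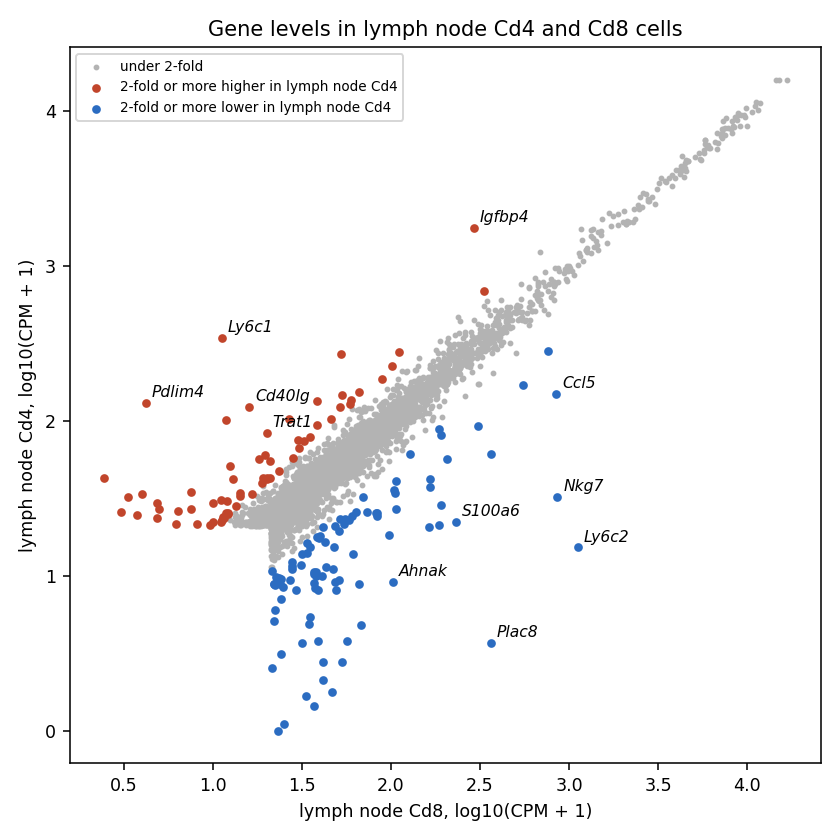
Level of each of the 4530 counted genes in lymph node Cd4 cells (vertical) and lymph node Cd8 cells (horizontal), as log10(CPM + 1), with genes past 2-fold in colour. Most genes lie along the diagonal, Igfbp4, Ly6c1 and Pdlim4 stand above it, and Ly6c2, Nkg7 and Plac8 below it.

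Against lymph node Treg cells, the other CD4-lineage label of the library, lymph node Cd4 cells were set apart by more genes that were lower than higher. Of 5185 counted genes, 73 (1.41%) were at least 2-fold higher in lymph node Cd4 cells and 546 (10.5%) at least 2-fold lower, and the median log2 ratio was -0.31. Higher genes were 11.8% of the calls here, 34.8% (166 higher and 311 lower) with TMM scaling and 33.1% when receptor, mitochondrial and ribosomal protein transcripts were left out of the total.

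Foxp3, the factor that defines regulatory T cells, was at 3.56 CPM in lymph node Cd4 cells and 394 CPM in lymph node Treg cells. A Foxp3 UMI was found in 22 lymph node Cd4 cells (1.17%, 0.738 to 1.77), against 237 lymph node Treg cells (73.8%) and 30 lymph node Cd8 cells (1.08%), so its share in Cd4 cells was at the level of a type that should lack the gene. Of 20 counted regulatory T genes, 20 were lower in lymph node Cd4 cells, with a median of -5.34. Those under 20 CPM in lymph node Cd4 cells, such as Foxp3, were counted only through lymph node Treg cells and could only come out lower. In the comparison with lymph node Cd8 cells 8 genes of this list were counted. Ikzf2 (Helios) was at 4.45 CPM in lymph node Cd4 cells and 683 CPM in lymph node Treg cells. Il2ra, the IL-2 receptor alpha chain, was at 5.78 CPM in lymph node Cd4 cells and 346 CPM in lymph node Treg cells. Ctla4, an inhibitory receptor, was at 43.0 CPM in lymph node Cd4 cells and 845 CPM in lymph node Treg cells.

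Among the other named genes lower in lymph node Cd4 cells were Lrrc32, which presents latent TGF-beta, Areg, an epidermal growth factor receptor ligand, Cd83, the integrin chain gene Itgae, S100a6, the granzyme gene Gzmb, Igkc and Rln3. Areg was at 3.78 CPM in lymph node Cd4 cells and 413 CPM in lymph node Treg cells. In lymph node Treg cells the Gzmb UMIs came from 44 cells, and 20.2% of those UMIs from 1 cell. Klrg1 and Rln3 had no UMI in lymph node Cd4 cells. Lymph node Treg cells held 100 UMIs of Klrg1 from 37 cells and 145 UMIs of Rln3 from 61 cells. Against a floor of 3 UMIs in all lymph node Cd4 cells, lymph node Treg cells held at least 157-fold more Klrg1 and at least 228-fold more Rln3. The immunoglobulin gene Igkc was at 91.4 CPM in lymph node Treg cells from 47 cells, while B cell markers summed to 269 CPM in lymph node Cd4 cells, 277 CPM in lymph node Cd8 cells and 898 CPM in lymph node Treg cells.

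On the higher side Pdlim4 again had a large ratio. It was at 129.6 CPM in lymph node Cd4 cells and 10.5 CPM in lymph node Treg cells, 12.3-fold (7.95 to 20.3). Igfbp4 was at 1757 CPM in lymph node Cd4 cells and 297 CPM in lymph node Treg cells, 5.92-fold (5.44 to 6.45), close to its ratio over lymph node Cd8 cells. Dapl1 was at 289.7 CPM in lymph node Cd4 cells and 42.0 CPM in lymph node Treg cells. The other named genes on this side were Atp1b1, Rflnb, Tdrp, Tgfbr3, Themis, Ranbp10 and Actn1, at log2 ratios between 1.66 and 2.31. Cd40lg was at 121 CPM in lymph node Cd4 cells and 31.5 CPM in lymph node Treg cells, 3.85-fold (2.97 to 5.08), and Ly6c1 at 343 CPM in lymph node Cd4 cells and 78.3 CPM in lymph node Treg cells. Of 12 counted helper genes 2 were higher (Cd40lg and Itgb3) and 5 lower (Tnfrsf4, Cd200, Izumo1r, Icos and Gata3), with a median of -0.63. Cd40lg is among the markers named with the cell type.

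Of 25 counted naive-state genes 9 were higher and 0 lower, with a median of 0.78. Tcf7 was at 368 CPM in lymph node Cd4 cells and 131 CPM in lymph node Treg cells, Lef1 at 462 CPM in lymph node Cd4 cells and 156.5 CPM in lymph node Treg cells, and Satb1, a chromatin organizer, at 241 CPM in lymph node Cd4 cells and 86.7 CPM in lymph node Treg cells. Ccr7 had a log2 ratio of 0.40. Genes of antigen experience stood lower in 20 of 22, with a median of -3.21. Counted members under 20 CPM in lymph node Cd4 cells could again only come out lower.

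Against tumor Cd4 cells, naive-state genes were higher and genes of antigen experience lower in lymph node Cd4 cells. Of 5127 counted genes, 313 (6.10%) were at least 2-fold higher in lymph node Cd4 cells and 756 (14.7%) at least 2-fold lower, with a median log2 ratio of -0.20. Higher genes were 29.3% of the calls, and 55.1% (780 higher and 635 lower of 6687 counted) when receptor, mitochondrial and ribosomal protein transcripts were left out of the total, which also brought more genes over the CPM minimum. With TMM scaling 388 were higher and 639 lower. Genes without a UMI in a whole library, 2267 of 14721, were left out of these counts.

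Ccr7 was at 601 CPM in lymph node Cd4 cells and 15.4 CPM in tumor Cd4 cells, 39.1-fold (34.1 to 45.0). S1pr1 was at 276 CPM in lymph node Cd4 cells and 11.7 CPM in tumor Cd4 cells, and Tcf7 at 368 CPM in lymph node Cd4 cells and 16.2 CPM in tumor Cd4 cells. Of 23 counted naive-state genes 22 were higher and 0 lower, with a median of 4.44. The remaining gene, Ets1, had a ratio of 0.16. Other named genes on the higher side were Dapl1, Nsg2, Trat1, Atp1b1, Rflnb, Treml2, Il6ra, Klf3 and Dtx1, at log2 ratios between 5.23 and 6.34. Of 26 genes of antigen experience 26 were lower, with a median of -4.46. Members under 20 CPM in lymph node Cd4 cells were counted only through tumor Cd4 cells and could only come out lower. Igfbp4, Pdlim4, Ifngr2, St8sia6 and Tmem108 are listed at 0 in the tumor library, so no fold is given for them. They are among 1426 genes at 0 throughout that library but seen in the lymph node, and such zeros may not be measured values.

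Effector genes lay on the lower side. Ifng was at 1.22 CPM in lymph node Cd4 cells and 347 CPM in tumor Cd4 cells, and Gzmb at 1.22 CPM in lymph node Cd4 cells and 490.5 CPM in tumor Cd4 cells. Mt1, a metal-binding protein, was at 0.778 CPM in lymph node Cd4 cells and 968 CPM in tumor Cd4 cells. S100a6 was at 21.4 CPM in lymph node Cd4 cells and 3242 CPM in tumor Cd4 cells. Lag3, an inhibitory receptor, was at 10.6 CPM in lymph node Cd4 cells and 701 CPM in tumor Cd4 cells. Lgals3, Plac8, Rgs16, Csf1 and Klrc1 were also among the lowest, at log2 ratios between -7.74 and -7.19. Ifitm1, Ifitm2 and Serpinb1a had no UMI in lymph node Cd4 cells, against 178 CPM (Ifitm1), 162 CPM (Ifitm2) and 151 CPM (Serpinb1a) in tumor Cd4 cells.

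Of 12 counted helper genes 1 was higher (Itgb3) and 5 lower (Tnfrsf4, Tnfsf11, Cd200, Icos and Cd28), with a median of -0.49. Cd40lg was at 121 CPM in lymph node Cd4 cells and 162 CPM in tumor Cd4 cells, and Zbtb7b at 31.0 CPM in lymph node Cd4 cells and 31.6 CPM in tumor Cd4 cells. The Ly6c pair again ran in opposite directions: Ly6c1 was 54.4-fold higher in lymph node Cd4 cells (44.0 to 68.0), while Ly6c2 was at 14.2 CPM in lymph node Cd4 cells and 832 CPM in tumor Cd4 cells.

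**Figure D3:**
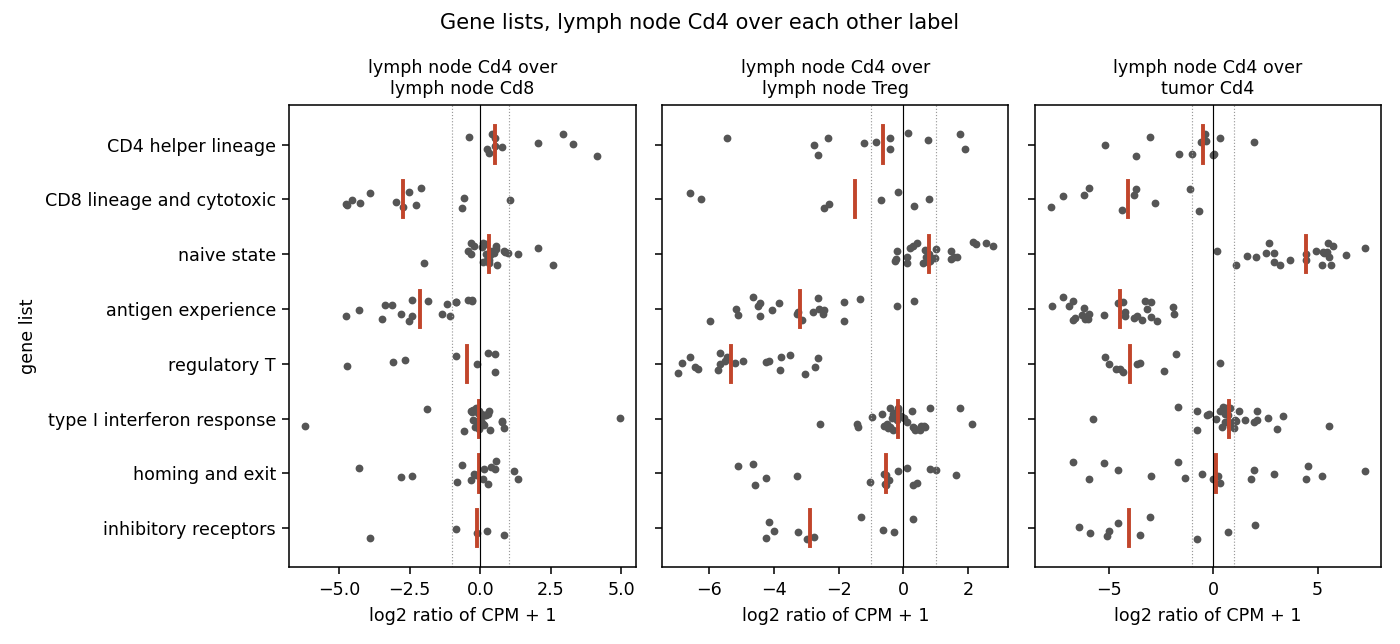
Log2 ratio of each counted member (grey points) of 8 gene lists, lymph node Cd4 over lymph node Cd8, lymph node Treg and tumor Cd4, with the list median in red and dotted lines at 2-fold. The medians of naive-state genes (0.32, 0.78 and 4.44) and of antigen-experience genes (-2.13, -3.21 and -4.46) move apart in the 3 panels, which have different horizontal scales.

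Surface receptors and signalling genes of lymph node Cd4 cells were mostly within 2-fold of those in lymph node Cd8 cells. Of 16 counted homing and exit genes 2 were higher (S1pr1 and Gpr183) and 3 lower (Cxcr3, Cxcr6 and Itgb1), with a median of -0.03 (0.01 on the mean of each cell's CPM). Gpr183, an oxysterol receptor that guides cells within lymph nodes, was at 152.8 CPM in lymph node Cd4 cells, against 65.5 CPM in lymph node Cd8 cells, 48.3 CPM in lymph node Treg cells and 43.4 CPM in tumor Cd4 cells. Of 17 cytokine receptors 1 was higher (Ifngr2) and 3 lower (Il2rb, Il18r1 and Il10rb), with a median of 0.20. Il7r, the receptor chain for the survival cytokine IL-7, was at 352 CPM in lymph node Cd4 cells, against 282 CPM in lymph node Cd8 cells, 209 CPM in lymph node Treg cells and 113 CPM in tumor Cd4 cells.

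Of 13 counted TNF family ligands and receptors 3 were higher than in lymph node Cd8 cells (Cd40lg, Tnfrsf25 and Fasl) and 0 lower, with a median of 0.43. Against lymph node Treg cells 2 of 14 were higher and 6 lower. Over all counted genes 1.43% were higher than in lymph node Cd8 cells and 1.41% higher than in lymph node Treg cells. Cd40lg is among the markers named with the cell type. Tnfrsf4 (OX40), a costimulatory receptor, was at 27.4 CPM in lymph node Cd4 cells, against 18.6 CPM in lymph node Cd8 cells, 1236 CPM in lymph node Treg cells and 1050.1 CPM in tumor Cd4 cells. Of inhibitory receptors 1 of 5 counted was lower than in lymph node Cd8 cells and 0 higher. Against lymph node Treg cells 7 of 10 were lower and 0 higher, and against tumor Cd4 cells 7 of 10 were lower and 1 higher (Pecam1). Over all counted genes the lower shares were 2.12% against lymph node Cd8, 10.5% against lymph node Treg and 14.7% against tumor Cd4 cells. Members under 20 CPM in lymph node Cd4 cells, such as Cd160 against lymph node Cd8 cells, were counted only through the other label and could only come out lower. Tigit was at 13.3 CPM in lymph node Cd4 cells, against 16.8 CPM in lymph node Cd8 cells, 253 CPM in lymph node Treg cells and 451 CPM in tumor Cd4 cells. The gene lower than in lymph node Cd8 cells was Cd160, at 1.78 CPM in lymph node Cd4 cells and 40.3 CPM in lymph node Cd8 cells.

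Genes of the helper subsets were counted in small numbers. Of all counted genes, 2.12% were lower than in lymph node Cd8 cells, 10.5% lower than in lymph node Treg cells and 14.7% lower than in tumor Cd4 cells. Subset genes under 20 CPM in lymph node Cd4 cells were counted only through the other label and could only come out lower. Of type 1 helper genes 4 of 7 counted were lower than in lymph node Cd8 cells, 5 of 8 lower than in lymph node Treg cells and 11 of 12 lower than in tumor Cd4 cells, with 0 higher in each. Tbx21 (T-bet), which drives the type 1 programme, was at 1.22 CPM in lymph node Cd4 cells, against 16.8 CPM in lymph node Cd8 cells, 8.40 CPM in lymph node Treg cells and 172 CPM in tumor Cd4 cells. Of follicular helper genes 0 of 5 counted passed 2-fold against lymph node Cd8 cells. Against lymph node Treg cells 4 of 7 were lower and 0 higher, and against tumor Cd4 cells 4 of 8 were lower and 1 higher. Bcl6, the factor of that subset, was at 3.56 CPM in lymph node Cd4 cells and 2.87 CPM in lymph node Cd8 cells, below the minimum for counting. Of type 2 helper genes 0 of 3 counted passed 2-fold against lymph node Cd8 cells, with 3 of 5 lower than in lymph node Treg cells and 1 of 4 lower than in tumor Cd4 cells. Of type 17 helper genes 0 of 1 counted passed 2-fold against lymph node Cd8 cells, with 2 of 3 lower than in lymph node Treg cells and 2 of 2 lower than in tumor Cd4 cells. Of 31 receptor signalling and early genes 1 was higher (Dusp5) and 2 lower (Nr4a2 and Egr2) than in lymph node Cd8 cells, against 0 higher and 8 lower than in lymph node Treg cells and 3 higher and 11 lower than in tumor Cd4 cells.

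Ribosomal protein genes, 90 in the table, had a median log2 ratio of -0.06 against lymph node Cd8 cells, 0.42 against lymph node Treg cells and 0.60 against tumor Cd4 cells. Genes of the type I interferon response were near 0 in the same library, with medians of -0.03 against lymph node Cd8 cells and -0.17 against lymph node Treg cells (0.18 there with TMM scaling), and 0.73 against tumor Cd4 cells, where 12 of 30 counted were higher and 2 lower. CD3 complex and proximal signalling genes were near level against lymph node Cd8 cells, with 24 counted, 0 past 2-fold and a median of 0.04 (-0.03 with TMM scaling). Melanoma markers summed to 8.89 CPM, neutrophil markers to 2.00 CPM and macrophage and monocyte markers to 20.8 CPM in lymph node Cd4 cells.

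Variation among the lymph node Cd4 cells was counted at equal depth. At 2000 UMIs per cell, 60 of 3529 genes with a mean of at least 0.05 UMIs had a variance at least 1.5 times the mean, where pure counting gives 1. The number depended on depth, with 20 of 1897 genes at 1000 UMIs and 92 of 4628 at 3000 UMIs. No such number was set beside it for the other labels. At 2000 UMIs Ccl5, a chemokine of effector and memory T cells, had the largest ratio, 153. Its 1328 UMIs came from 22 of the 1873 cells, and 820 of them (61.7%) from 1 cell. Without that cell Ccl5 stood at 56.5 CPM in place of 147.7 CPM, and its log2 ratio was -3.88 in place of -2.51 against lymph node Cd8 cells and -1.05 in place of 0.32 against lymph node Treg cells.

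After Ccl5 the largest ratios of variance to mean were those of Lars2 (11.3) and AY036118 (4.53), and Tmsb10 (2.89), Malat1 (2.48) and Actb (2.47) were among the abundant genes past 1.5. Fos (3.33), Junb (2.94), Zfp36 (2.41), Nfkbia (2.31) and Cd69 (2.13) are early genes of stimulation and of tissue handling. Isg15 (2.90), Ifit1 (2.34), Ifit3 (2.12) and Ifi27l2a (3.71) are interferon-stimulated. Igfbp4 had a ratio of 2.82 and was found in 1689 cells, with a median of 7 UMIs per cell. Sox4, a transcription factor, had a ratio of 2.22 and was found in 178 cells.

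Across cells at 2000 UMIs the interferon genes moved together: Pearson's r was 0.42 between Isg15 and Ifit1 and 0.41 between Ifit1 and Ifit3 over 1811 cells of 1 library, as a description. Zfp36 and Fos had an r of 0.37. At least 4 of 8 interferon genes (Ifit1, Ifit3, Isg15, Irf7, Rtp4, Usp18, Rsad2 and Bst2) were found in 165 of 1811 lymph node Cd4 cells, 9.11%, against 10.5% of lymph node Cd8, 8.74% of lymph node Treg and 1.65% of tumor Cd4 cells. Without thinning the shares were 24.8% in lymph node Cd4, 35.9% in lymph node Cd8, 28.0% in lymph node Treg and 10.5% in tumor Cd4 cells.

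**Figure D4:**
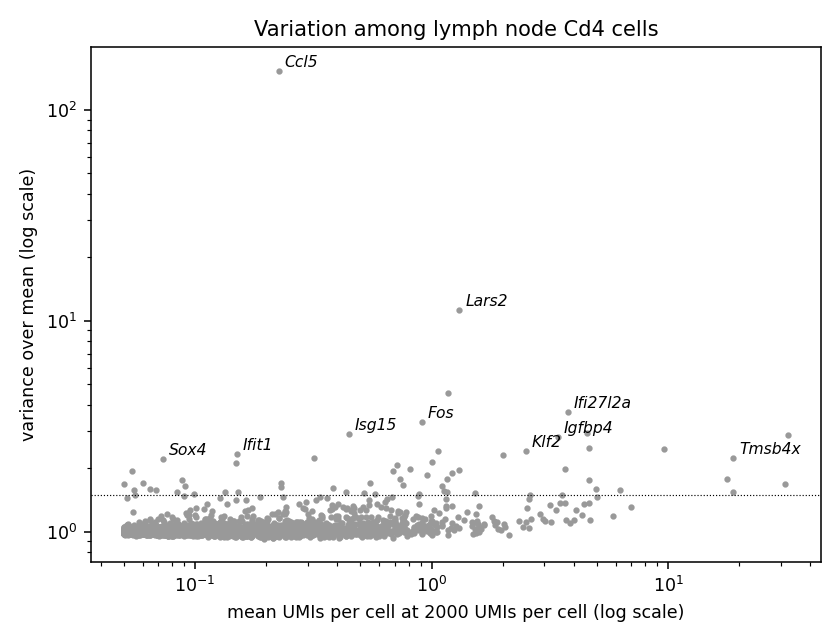
Variance over mean of UMIs per cell against mean UMIs per cell for 3529 genes in lymph node Cd4 cells thinned to 2000 UMIs, both on log scales, with a dotted line at 1.5. Most genes lie near 1, Ccl5 lies at 153 and Lars2 at 11.3.

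The receptors of lymph node Cd4 cells were diverse. A receptor was called in 1793 of the 1873 cells (95.7%), with 1789 distinct receptors and at most 2 cells sharing 1. The 2435 tumor Cd4 cells with a call had 3 receptor entries, the largest holding 2280 cells. Those entries held 1 distinct alpha CDR3 and 1 distinct beta CDR3 in all. No alpha or beta CDR3 of lymph node Cd4 cells occurred in tumor Cd4 cells. As shares of cells with a receptor call, a second alpha chain was found in 10.9% of lymph node Cd4 cells and 10.0% of lymph node Cd8 cells, and a second beta chain in 4.63% (3.70 to 5.71) of lymph node Cd4 cells, 6.59% (5.68 to 7.60) of lymph node Cd8 cells and 15.6% (11.7 to 20.2) of lymph node Treg cells. A second beta chain is one sign of a droplet with a pair of cells. Lymph node Treg cells with a second beta chain had a median of 9545 UMIs, against 5091 in those with 1 beta chain. The medians were 8442 and 6284 UMIs for lymph node Cd8 cells, and 5015 and 4817.5 UMIs for lymph node Cd4 cells. The part of such droplets in the genes higher in lymph node Treg or lymph node Cd8 cells was not tested. Of the distinct alpha CDR3s of lymph node Cd4 cells 134 also occurred in lymph node Cd8 cells, 7.95% of the Cd4 set and 5.88% of the Cd8 set, and of the beta CDR3s 46, 2.55% and 1.69%.

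Variable segments, read from UMIs, differed between the labels of the library. A beta segment was assigned in 1576 lymph node Cd4 and 2425 lymph node Cd8 cells and an alpha segment in 918 lymph node Cd4 and 1231 lymph node Cd8 cells, and 33 segments or families were compared. Trbv31 was used by 9.96% of the lymph node Cd4 cells with an assigned beta segment and by 2.60% of lymph node Cd8 cells, 3.83-fold (2.85 to 5.22). Trbv3 was used by 10.6% of lymph node Cd4 cells, against 6.19% of lymph node Cd8 cells, and the Trav14 family by 18.5% of lymph node Cd4 cells, against 8.69% of lymph node Cd8 cells with an assigned alpha segment. On the lower side Trbv12-1 was used by 1.59% of lymph node Cd4 cells, against 8.70% of lymph node Cd8 cells, and Trbv29 by 1.52% of lymph node Cd4 cells, with 5.25 times that share (3.43 to 8.40) in lymph node Cd8 cells. Lymph node Treg cells did not follow the Cd4 pattern in each segment: 13.8% of them used Trbv12-1. Trbv31 is also the segment of the tumor cells, while no CDR3 of lymph node Cd4 cells occurred in tumor Cd4 cells, as stated above.

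**Figure D5:**
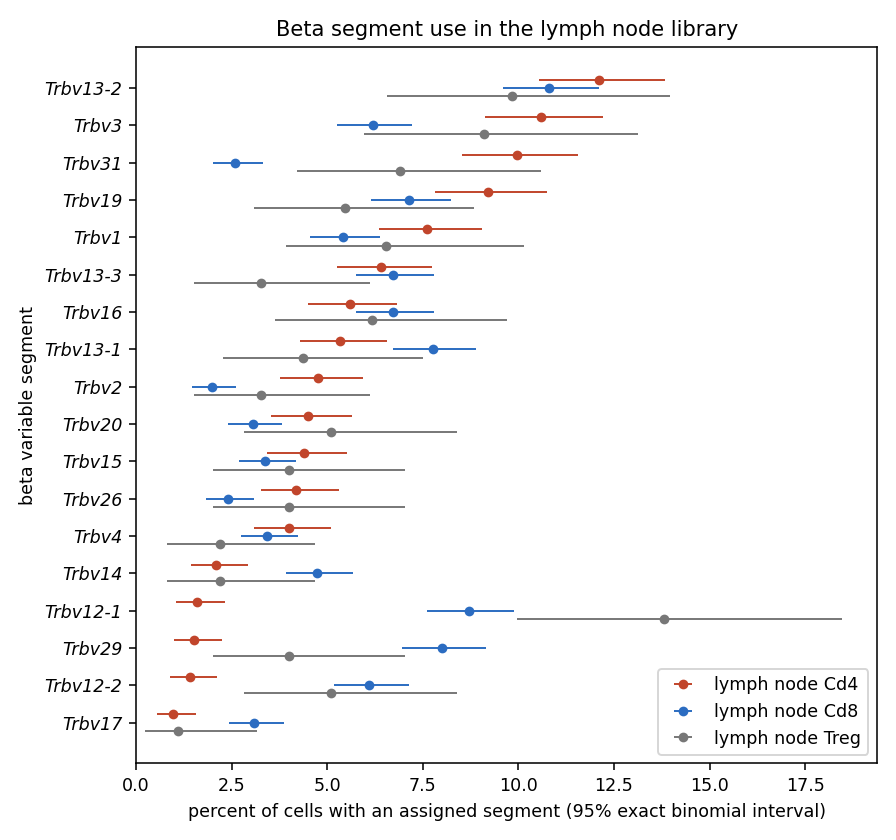
Share of cells using each beta variable segment in lymph node Cd4, Cd8 and Treg cells, as percent of cells with an assigned segment, with exact 95% binomial intervals. Trbv31 is higher in lymph node Cd4 (9.96%) than in lymph node Cd8 cells (2.60%), and Trbv12-1, Trbv29 and Trbv12-2 are lower.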

How the data were processed

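The deposited table holds whole-number UMI counts per gene and cell, raw as the authors deposited them, made with Cell Ranger 3.1.0 and the build mm10, per the submitters' processing notes. A second deposited table gives each cell's library, label and receptor as other, non-numeric values. The sources used here name no filter or doublet removal before deposit, and no doublet caller was run. Cells of a label were summed and scaled to CPM. A pseudocount of 1 CPM was used, genes with 20 CPM or more in either label were counted and 2-fold was the call. A gene under 20 CPM in lymph node Cd4 cells was counted only through the other label and could then only come out lower. A counted gene under 20 CPM in the other label could only come out higher. Named genes were the 12 highest and 12 lowest ratios per comparison among genes with 50 CPM or more and 100 UMIs or more. A cell was assigned the receptor segment with its most UMIs where these were at least 2 and not tied. Intervals are exact Poisson ratio and Clopper-Pearson intervals at 95%. Members, lists and rules were chosen with earlier results of these data known, and the 8-gene cell counts and the list members given as examples after values were seen. Python 3.11.15, scipy 1.17.1 and edgeR 4.0.16 (TMM factors) were used. The ratio interval and the 2-fold call were tested on simulated Poisson counts without spread between cells. That test cannot show how the intervals hold for genes that vary between cells, such as Ccl5. Depth was 29067001 UMIs in the lymph node and 33147030 in the tumor library. Gene coordinates are RefSeq's for GRCm38.p6. One gene's values are not reported here.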

Additional observations from a re-analysis of the deposited data

How the results depend on the processing

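No paired analysis was possible because each tissue has 1 RNA library. All 72 ratios of named genes kept their sign and stayed past 2-fold under the 10 alternatives to scaling, pseudocount and cells. These genes were picked as the 12 highest and 12 lowest ratios per comparison, so this says little about genes with smaller ratios. Of 74 list medians, 13 changed sign under at least 1 alternative, none of them above 0.49 in size as reported. Counts of genes, higher then lower in lymph node Cd4 cells, were 65 and 96 against lymph node Cd8, 73 and 546 against lymph node Treg and 313 and 756 against tumor Cd4 as reported. Against lymph node Cd8 they were 184 and 372 with no CPM minimum, 29 and 42 with a 50 CPM minimum, 206 and 192 at 1.5-fold, 25 and 57 at 3-fold, 39 higher with pseudocount 10, and 162 lower on a reduced total (no receptor, ribosomal or mitochondrial transcripts). Against lymph node Treg they were 332 and 1613, 40 and 288, 199 and 1324, and 32 and 252 under the same first 4 alternatives, with 46 higher at pseudocount 10, 166 and 311 with TMM scaling, and 234 higher on the reduced total. Against tumor Cd4 they were 821 and 1440, 166 and 449, 634 and 1411, and 161 and 417 under the first 4, with 780 higher on the reduced total. Higher calls were 11.8% of calls against lymph node Treg as reported, 34.8% with TMM scaling and 33.1% on the reduced total. The Cd4 share was 50.7% as deposited and 28.3% at 2000 UMIs. Genes past 1.5 times the mean numbered 60 at 2000 UMIs, 20 at 1000 and 92 at 3000. A beta chain was called in 93.1% of lymph node Cd4 cells by the annotation, and 94.6% had at least 1 UMI of a beta segment. Ccl5, tested without its highest cell after the data were seen, is given with its value above. Depth limits genes under 20 CPM, and 1 library per tissue limits every comparison to these libraries.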
